A study of Homo sapiens with 26 samples.

Results

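RNA levels of 55 genes of the G2 phase and of mitosis were followed through the knockdown of the B cell transcription factor POU2F2 (OCT2) or of its coactivator POU2AF1 (OCA-B) in OCI-Ly7 and SUDHL4, both established human lymphoma lines of germinal centre B cell origin. The 55 genes were chosen by name as a list of G2 and M phase genes, out of 58592 genes with transcripts in the deposited tables, and all 55 had reads in every library. The knockdown cells carried guide RNAs against POU2AF1 or POU2F2, and the control cells carried non-targeting guides. All of them, controls included, carried the repressor fusion dCas9-BFP-KRAB on a lentiviral vector with an SFFV promoter (CRISPR interference), and the guides were also delivered by lentivirus. SUDHL4 cells grew in RPMI medium and OCI-Ly7 cells in IMDM, both with serum, so the medium and the line cannot be told apart. OCI-Ly7 contributed 6 POU2AF1 knockdown (KD) libraries, 8 POU2F2 KD libraries and 4 control libraries, and SUDHL4 contributed 1 POU2AF1 KD library, 2 POU2F2 KD libraries and 1 control library. The 2 files of SUDHL4 POU2AF1 KD, the 2 of SUDHL4 control and 1 pair of files of OCI-Ly7 control differed by about the sampling noise, and each pair was counted as 1 library. The labels do not say whether replicates came from separate cultures, so p-values measure the spread between these libraries, which may be technical. A time of 48 h is given for POU2AF1 KD replicate 3 and POU2F2 KD replicate 3 of OCI-Ly7, and no time for the other libraries analysed. The file of OCI-Ly7 control replicate 3 is also labelled 48 h. It repeats the sum of control files 1 and 2, the merged pair, which carry no time, so the time of that library is unclear.

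Cells enter mitosis when cyclin-dependent kinase 1, bound to its cyclins, is activated by the CDC25 phosphatases, and they leave it when the anaphase-promoting complex has the cyclins and securin destroyed. In between, chromosomes are condensed, attached to the spindle through kinetochores under the watch of the spindle checkpoint, and pulled apart before the cell body is divided. Most of the genes involved are transcribed late in the cycle, under repression by the DREAM complex in resting cells and activation by B-MYB and FOXM1 in cycling cells, so their RNA is abundant in dividing cells such as germinal centre B cells. In bulk RNA, fewer cells in G2 and mitosis and less RNA per such cell cannot be told apart.

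The promoters of late cell cycle genes are known for a pair of short elements, the CCAAT box and the cell cycle genes homology region. Of the 55 genes, 4 promoters are shown, because their genes stand for mitotic entry (CDK1, CCNB1, PLK1) and for the largest fitted change between knockdown and control (ASPM). Each line gives the 180 bases before the RefSeq gene start (GRCh38.p14), read on the gene's own strand. Capitals mark the CCAAT box and the homology region on either strand, with the homology region searched as TTTGAA and in a further form as TTTAAA.
CDK1: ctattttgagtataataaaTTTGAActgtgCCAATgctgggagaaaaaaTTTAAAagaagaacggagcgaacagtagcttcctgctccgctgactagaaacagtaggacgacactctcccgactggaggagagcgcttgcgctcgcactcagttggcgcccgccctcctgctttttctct
CCNB1: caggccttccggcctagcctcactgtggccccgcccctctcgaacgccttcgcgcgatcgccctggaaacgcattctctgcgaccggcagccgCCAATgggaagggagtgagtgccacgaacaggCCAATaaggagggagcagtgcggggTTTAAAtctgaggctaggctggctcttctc
PLK1: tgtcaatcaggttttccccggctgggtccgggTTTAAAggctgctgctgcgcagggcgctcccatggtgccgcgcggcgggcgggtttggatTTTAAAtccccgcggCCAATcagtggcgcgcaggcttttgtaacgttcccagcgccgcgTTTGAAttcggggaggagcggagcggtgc
ASPM: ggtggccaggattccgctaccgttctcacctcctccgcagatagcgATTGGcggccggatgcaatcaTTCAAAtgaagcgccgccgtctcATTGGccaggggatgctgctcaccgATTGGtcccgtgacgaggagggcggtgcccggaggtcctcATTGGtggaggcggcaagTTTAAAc
These stretches lie at chr10:60778151-60778330 (CDK1, + strand), chr5:69166970-69167149 (CCNB1, + strand), chr16:23678709-23678888 (PLK1, + strand) and chr1:197146670-197146849 (ASPM, - strand). In CCNB1 the CCAAT boxes begin 87 and 55 bases before the start, and a homology region begins at 30 bases. In CDK1 the homology regions begin at 161 and 131 bases, with a CCAAT box at 150 bases between them.

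RefSeq promoters were matched for 48 of the 55 genes, and the 250 bases before the start were searched on both strands. CCAAT was found in 36 of the 48 (75%), against 33.0% of 27305 promoters of all genes. The homology region in either form was found in 32 of the 48 (66.7%), against 22.1% of all promoters, and both elements together in 27 of the 48 (56.3%), against 7.85% of all promoters. The octamer ATGCAAAT, which POU2F2 is known to bind, was found in 0 of the 48, against 1.66% of all promoters. An E2F site written as TTTCCCGC or TTTGGCGC was found in 2 of the 48 (4.17%), those of CENPA and NUSAP1, against 1.96% of all promoters. None of these motifs contains another. A match describes letters only, and its absence from this window says nothing about where the factor binds.

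The guides' targets were low in the libraries labelled for them. Counted as CPM (estimated reads scaled to library size, TMM-normalised over all libraries), POU2AF1 stood at 50.1 ± 27.4 CPM in OCI-Ly7 POU2AF1 KD (SD, n = 6) and 455 ± 11.7 CPM in OCI-Ly7 control (n = 4), and at 79.8 CPM in SUDHL4 POU2AF1 KD and 443 CPM in SUDHL4 control. POU2F2 stood at 79.9 ± 30.4 CPM in OCI-Ly7 POU2F2 KD (n = 8) and 275 ± 89.6 CPM in OCI-Ly7 control (n = 4). The 8 POU2F2 KD libraries, at 55.8 to 147.9 CPM, are all batch 2, where the controls had 238.7, 248 and 206.9 CPM. The batch 1 control had 406.9 CPM. In SUDHL4, POU2F2 stood at 43.5 and 55.3 CPM in POU2F2 KD, 330.4 CPM in control and 496.7 CPM in POU2AF1 KD. Libraries held 26311714 to 59375211 reads in genes. OCI-Ly7 POU2AF1 KD replicate 1 stood apart with 25.8% of its reads on mitochondrial genes, against 7.05% to 14.1% in every other library. All 8 B cell markers were expressed in both lines, and 8 of 10 T and NK cell markers stayed below 1 CPM in every library of each line.

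Per transcript length, the mean level in OCI-Ly7 ranged from 16.1 TPM (a share of all transcripts, corrected for length) for CDC25C, a phosphatase that activates CDK1, to 399 TPM for CKS2, a small subunit that docks on CDK1. The median of the 55 mean levels over all conditions was 109 TPM in OCI-Ly7 and 55.04 TPM in SUDHL4. The SUDHL4 means include the POU2AF1 KD library, so the 2 medians do not compare the lines. Between controls, the median log2 difference, OCI-Ly7 minus SUDHL4, was 0.163 on counts and 0.282 on log2(TPM + 1). CKS2, the securin PTTG1 and the condensin subunit SMC4 had the 3 highest means in both lines, at 399 ± 40.6, 374 ± 101 and 398 ± 66.9 TPM in OCI-Ly7 (SD over all conditions, n = 18) and at 492 ± 161, 279 ± 57.1 and 263 ± 93.7 TPM in SUDHL4 (n = 4). CDC25C, the kinetochore motor CENPE and the chromokinesin KIF4A had the 3 lowest means in both. All 54 neighbouring pairs in the OCI-Ly7 order lay within the sum of their SDs, so the order is a description. In CPM, which longer transcripts raise, MKI67 made up 9.54% of the summed level of the 55 genes on average, and MKI67, TOP2A, SMC4, NCAPD2 and CENPF together 29.8%. The fewest estimated reads of any of the 55 genes in a library were 497.

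In SUDHL4, knockdown of POU2AF1 came with lower RNA of all 55 G2 and mitosis genes. The fitted changes ran from a log2 of -1.15 for ASPM to -0.32 for CKAP2, with a median of -0.81, which is a fold of 0.569 or 43.1% less RNA, while the median over all genes tested was 0.0082. Summed over the 55 genes, the level was 5689 CPM in the POU2AF1 KD library, 9060 and 8911 CPM in the POU2F2 KD libraries, and 10269 CPM in the control library. POU2AF1 KD was the lowest of the 4 libraries for 55 of 55 genes, and control the highest for 53 of 55. Each of these orders rests on 1 POU2AF1 KD and 1 control library, and the share over all genes was not counted. All 55 passed an adjusted p of 0.05 as lower in the SUDHL4 fit (edgeR's quasi-likelihood test, Benjamini-Hochberg adjustment over 16972 genes). Over all genes tested, that test called 36.8%, of which 18.8% of all genes tested as lower. The spread in this fit comes from the 2 POU2F2 KD libraries alone, and the lone POU2AF1 KD and control libraries are assumed to vary like them. When all 22 libraries were fitted together, 11 of the 55 passed as lower, against 0.550% of all genes. With the series mark as a block in that fit, 50 of the 55 passed as lower, against 7.39% of all genes. SUDHL4 libraries carry no series mark, so none of their comparisons was made within a series. The median change was -0.831 with or without the block. The spread of the fit, shared with the OCI-Ly7 libraries, had a coefficient of variation of 0.147 with the block and 0.298 without.

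**Figure D1:**
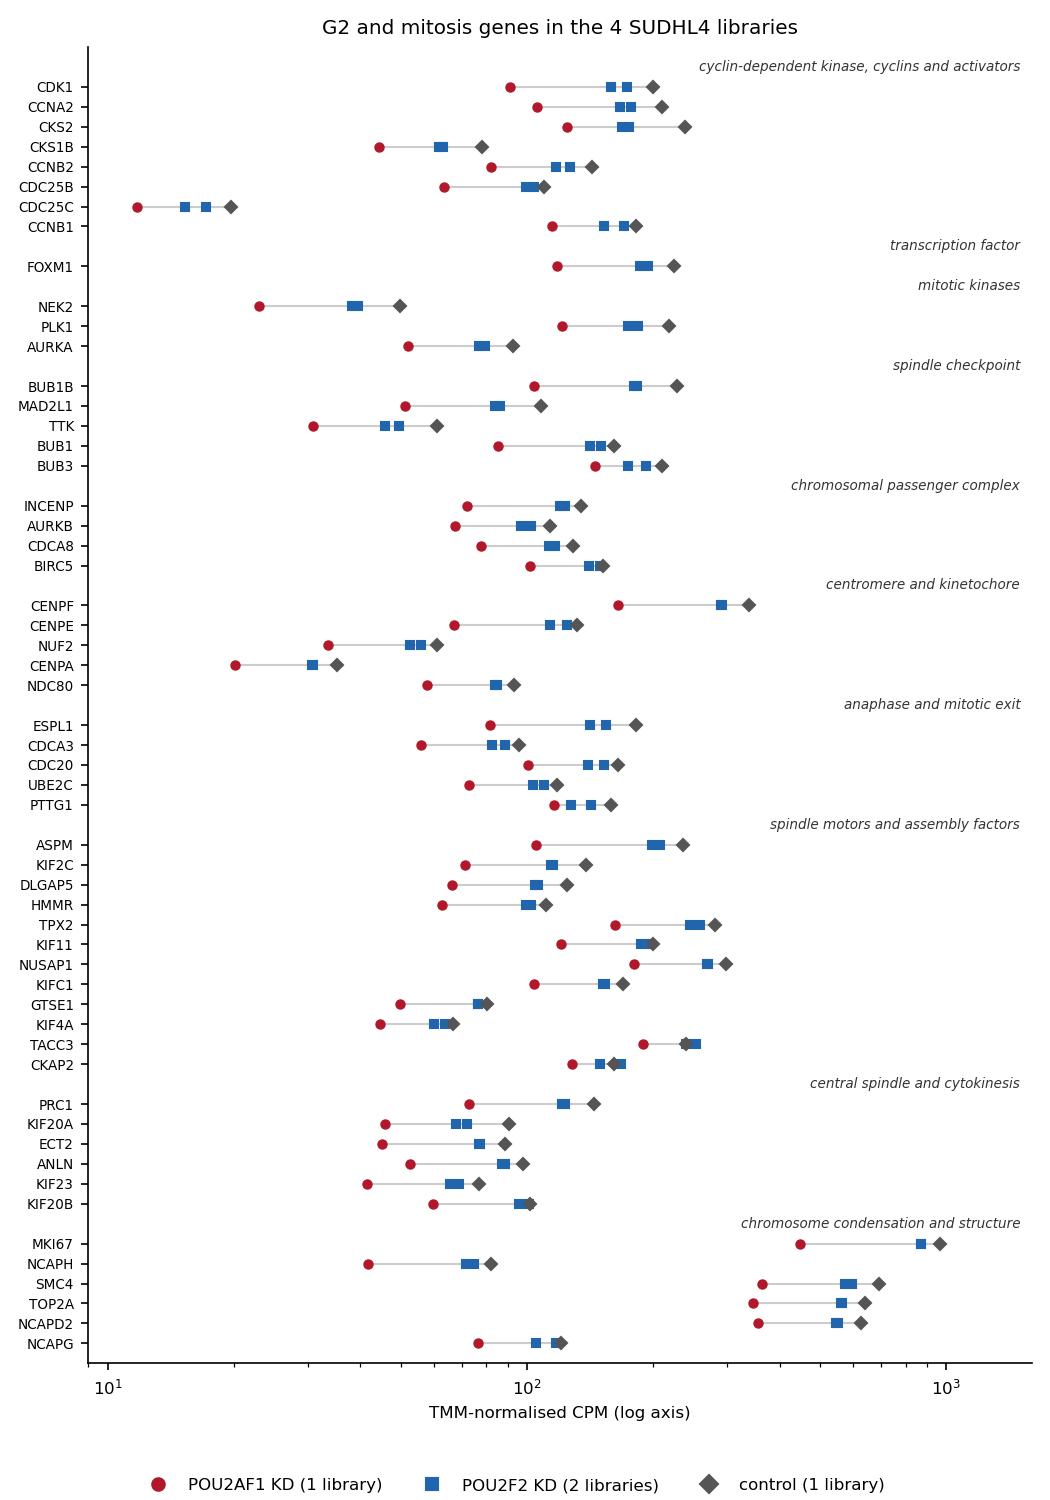
Levels of the 55 genes in the 4 SUDHL4 libraries, as TMM-normalised CPM on a log axis, with the genes grouped by role and 1 point per library. The POU2AF1 KD point is the lowest for all 55 genes, and the control point is the highest for 53. The share of all genes in these orders was not counted.

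The cyclin-dependent kinase, its cyclins and its activators fell together in SUDHL4 POU2AF1 KD, 8 of 8, with a median log2 change of -0.79. CDK1, the kinase that drives entry into mitosis, had 91.3 CPM in POU2AF1 KD, 158 and 173 CPM in the POU2F2 KD libraries and 200.1 CPM in control. CCNB1, its mitotic cyclin, had 115 CPM in POU2AF1 KD, 171 and 153 CPM in POU2F2 KD and 182 CPM in control. CCNA2, the cyclin of S and G2 phase, had 106 CPM in POU2AF1 KD, 177 and 167 CPM in POU2F2 KD and 210.0 CPM in control. For each of the 3 genes the POU2AF1 KD library lay below the other 3 libraries. Against control, the log2 change was -1.11 ± 0.11 for CDK1 (SE, edgeR adjusted p = 8.04e-10), -0.65 ± 0.11 for CCNB1 (adjusted p = 1.56e-05) and -0.97 ± 0.11 for CCNA2 (adjusted p = 1.03e-08). The phosphatases CDC25B and CDC25C changed by -0.77 and -0.72, and the docking subunits CKS1B and CKS2 by -0.80 and -0.92. CDK1 was also among the 11 genes that passed in the fit of all libraries (edgeR adjusted p = 0.0315).

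FOXM1, the transcription factor that activates many late cell cycle genes, had 118 CPM in SUDHL4 POU2AF1 KD, 194 and 186 CPM in POU2F2 KD and 224 CPM in control. Its log2 change in POU2AF1 KD was -0.91 ± 0.11 (edgeR adjusted p = 4.46e-08), and it passed in the fit of all libraries too (adjusted p = 0.0354). The mitotic kinases fell in 3 of 3 cases. PLK1, which acts from mitotic entry to cytokinesis, had 121 CPM in POU2AF1 KD, 184 and 174 CPM in POU2F2 KD and 219 CPM in control, and AURKA, the kinase of the spindle poles, had 52.1 CPM in POU2AF1 KD, 77.0 and 79.5 CPM in POU2F2 KD and 92.7 CPM in control. NEK2, which parts the centrosomes, had 22.95 CPM in POU2AF1 KD, 38.3 and 39.6 CPM in POU2F2 KD and 49.8 CPM in control. In all 3 kinases the POU2F2 KD libraries stood between the POU2AF1 KD library and the control library. The log2 changes in POU2AF1 KD were -0.84 ± 0.11 for PLK1, -0.81 ± 0.10 for AURKA and -1.10 ± 0.12 for NEK2.

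The spindle checkpoint, which holds back anaphase until every kinetochore is attached, had the lowest role median, at -0.96 over 5 of 5 genes that fell. BUB1B, which encodes the checkpoint protein BubR1, had 104 CPM in POU2AF1 KD, 183 and 179.6 CPM in POU2F2 KD and 228 CPM in control. MAD2L1, which encodes the inhibitor MAD2, had 51.3 CPM in POU2AF1 KD, 86.2 and 84.1 CPM in POU2F2 KD and 108 CPM in control. The 2 genes showed the same order of libraries, with log2 changes in POU2AF1 KD of -1.11 ± 0.11 for BUB1B and -1.06 ± 0.10 for MAD2L1. The checkpoint kinases TTK and BUB1 changed by -0.96 and -0.90, and BUB3, an adaptor of the checkpoint, by -0.51. BUB1B, MAD2L1 and TTK also passed in the fit of all libraries (edgeR adjusted p = 0.0192, 0.0246 and 0.0311).

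At the centromere, the chromosomal passenger complex (4 of 4 genes fell, median -0.73) and the centromere and kinetochore genes (5 of 5, median -0.85) followed the same pattern. INCENP, the scaffold of the passenger complex, had 72.0 CPM in POU2AF1 KD, 119.8 and 123 CPM in POU2F2 KD and 135 CPM in control, a log2 change of -0.88 in POU2AF1 KD. Its partners AURKB, CDCA8 (borealin) and BIRC5 (survivin) changed by -0.74, -0.72 and -0.55. CENPF, a large kinetochore protein, had 165 CPM in POU2AF1 KD, 289.6 and 292 CPM in POU2F2 KD and 338 CPM in control, a log2 change of -1.02 ± 0.12 in POU2AF1 KD (edgeR adjusted p = 1.22e-08). The kinetochore motor CENPE changed by -0.96, the microtubule-binding NUF2 and NDC80 by -0.85 and -0.67, and the centromeric histone CENPA by -0.79.

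The genes of anaphase and mitotic exit had a median change of -0.69 over 5 of 5 that fell, with separase and securin at the ends of the range. ESPL1, the separase that cuts cohesin, had 81.6 CPM in POU2AF1 KD, 142 and 155 CPM in POU2F2 KD and 182 CPM in control. PTTG1, the securin that holds separase inactive, had 116 CPM in POU2AF1 KD, 142 and 127 CPM in POU2F2 KD and 159 CPM in control. The log2 change in POU2AF1 KD was -1.14 ± 0.11 for ESPL1 (edgeR adjusted p = 3.89e-10) and -0.44 ± 0.11 for PTTG1 (adjusted p = 0.00151), and whether the 2 changes differ was not tested. CDC20, which activates the anaphase-promoting complex, changed by -0.69, its ubiquitin-conjugating enzyme UBE2C by -0.68, and CDCA3, a regulator of mitotic entry, by -0.76.

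Spindle motors and assembly factors formed the broadest group, with 12 of 12 lower and a median of -0.71. ASPM, which focuses the spindle poles, had 105 CPM in POU2AF1 KD, 199 and 208 CPM in POU2F2 KD and 236 CPM in control, the largest fitted fall of the 55 genes (log2 -1.15 ± 0.11, edgeR adjusted p = 4.51e-10). The kinesin KIF2C changed by -0.95, DLGAP5 by -0.89 and the motors KIF11, KIFC1 and KIF4A by -0.71, -0.69 and -0.56. The 2 smallest changes of all were here as well. TACC3, which steadies kinetochore fibres, had 189 CPM in POU2AF1 KD, 253 and 239 CPM in POU2F2 KD and 239.8 CPM in control. CKAP2, a microtubule-stabilising protein, had 128 CPM in POU2AF1 KD, 167 and 149 CPM in POU2F2 KD and 161 CPM in control. They were the 2 genes in which a POU2F2 KD library and not control was the highest, and their log2 changes in POU2AF1 KD were -0.32 ± 0.11 each (edgeR adjusted p = 0.0236 for TACC3 and 0.0227 for CKAP2).

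Genes of the central spindle and cytokinesis fell in 6 of 6 cases, with a median of -0.92. PRC1, which bundles the microtubules of the central spindle, had 72.9 CPM in POU2AF1 KD, 123 and 122 CPM in POU2F2 KD and 144 CPM in control, a log2 change of -0.97 in POU2AF1 KD. The kinesins KIF20A, KIF23 and KIF20B changed by -0.97, -0.87 and -0.75, the exchange factor ECT2 that places the cleavage furrow by -0.95, and the furrow scaffold ANLN by -0.88.

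The genes of chromosome condensation and structure, which include the 4 genes with the highest mean CPM of the 55, fell in 6 of 6 cases with a median of -0.89. MKI67, which encodes the proliferation marker Ki-67 that coats mitotic chromosomes, had 449 CPM in POU2AF1 KD, 871 and 870.5 CPM in POU2F2 KD and 964 CPM in control. TOP2A, the topoisomerase that untangles sister chromatids, had 346 CPM in POU2AF1 KD, 561 and 564 CPM in POU2F2 KD and 638.5 CPM in control. For both, the 2 POU2F2 KD libraries lay within a few CPM of each other and far above the POU2AF1 KD library. The log2 changes in POU2AF1 KD were -1.08 ± 0.14 for MKI67 (edgeR adjusted p = 9.61e-08) and -0.87 ± 0.13 for TOP2A (adjusted p = 1.33e-06). The condensin subunits NCAPH, SMC4, NCAPD2 and NCAPG changed by -0.96, -0.91, -0.80 and -0.64.

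**Figure D2:**
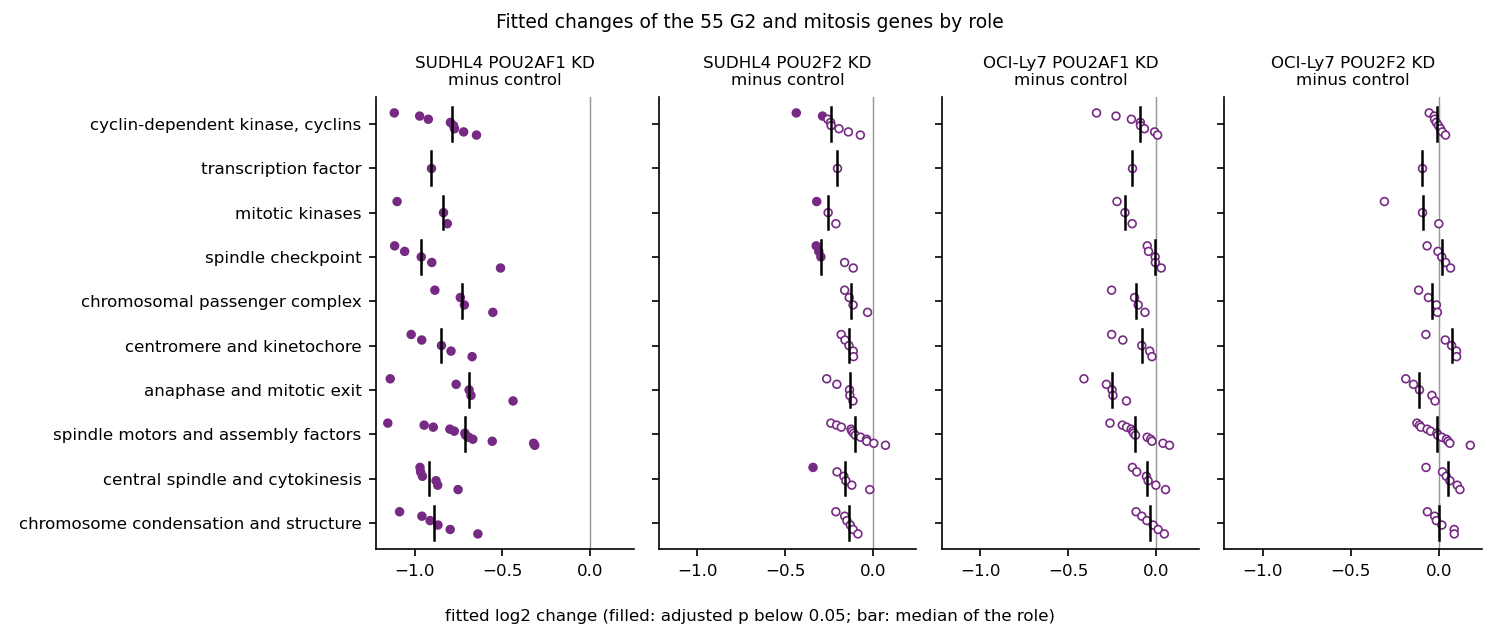
Fitted log2 change of each of the 55 genes against control in 4 comparisons, POU2AF1 KD and POU2F2 KD in SUDHL4 and in OCI-Ly7, by role. Filled points had an edgeR adjusted p below 0.05, and the bar in each role is its median. All 55 points are filled and negative for SUDHL4 POU2AF1 KD, 7 are filled for SUDHL4 POU2F2 KD and 0 for either knockdown in OCI-Ly7.

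Other mitotic genes and S phase genes also fell in SUDHL4 POU2AF1 KD, where 18.8% of all genes were called lower and 36.8% in either direction. Of 58 other mitotic genes tested, 53 were called lower and 1 higher, with a median log2 change of -0.76, led by the kinetochore gene CENPH at -1.11 and CDKN3 at -1.07. Of 42 S phase genes, 42 were called lower, with a median of -0.73, led by the replication genes GINS1 at -1.23 and DTL at -1.18. Of 25 genes of the DREAM and MYB-MuvB regulators, 12 were called lower and 2 higher (median -0.26). The members that fell include the factors E2F1 and E2F2 (-1.06 each), and CDKN1A, which encodes the cyclin-dependent kinase inhibitor p21, rose by 1.44 (edgeR adjusted p = 0.0062). Of 18 genes of the anaphase-promoting complex and its regulators, 6 were called lower and 3 higher (median -0.22), and neither of these last lists moved in 1 direction alone. Whether the 55 genes fell further than the S phase genes was not tested.

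In SUDHL4, the sums of B cell, T and NK cell, and myeloid markers rose from control to POU2AF1 KD, and that of plasma cell markers fell. The 8 B cell markers summed to 6297 CPM in POU2AF1 KD, 4697 and 4219 CPM in POU2F2 KD and 3423 CPM in control, and 6 of the 8 were called higher in POU2AF1 KD and 2 lower. The 10 T and NK cell markers summed to 11.1 CPM in POU2AF1 KD, 9.46 and 10.0 CPM in POU2F2 KD and 5.601 CPM in control, with CD3D at 0 in every SUDHL4 library. The 8 myeloid markers summed to 6.91 CPM in POU2AF1 KD, 2.59 and 2.70 CPM in POU2F2 KD and 1.04 CPM in control, with CD68 the only marker at or above 1 CPM and MPO and S100A8 at 0. The 6 plasma cell markers summed to 243 CPM in POU2AF1 KD, 246 and 269 CPM in POU2F2 KD and 296 CPM in control, and of the 4 tested 1 was called higher in POU2AF1 KD and 3 lower. The part of these markers in the change of the G2 and mitosis genes was not tested.

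The 48 genes with a promoter sequence were divided by the late cell cycle elements shown above. In SUDHL4 POU2AF1 KD the median log2 change was -0.84 over the 27 genes with both elements, -0.91 over the 14 with either alone, -0.72 over the 7 with neither and -0.77 over the 7 genes with no promoter in the table. These medians are descriptions and were not tested.

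In SUDHL4, knockdown of POU2F2 came with a smaller shift of the same genes. The median log2 change was -0.15, a fold of 0.898 or 10.2% less RNA, with 53 of 55 below zero and a range from -0.44 for CKS2 to 0.070 for TACC3. Of the 55, 7 passed as lower (edgeR adjusted p below 0.05), against 2.56% of all genes called lower and 7.35% called in either direction. They were CKS2, the cytokinesis kinesin KIF20A, the checkpoint genes MAD2L1, TTK and BUB1B, the kinase NEK2 and CKS1B. CKS2 had 176 and 169 CPM in the POU2F2 KD libraries and 238.5 CPM in the control library, with both KD libraries below control (log2 -0.44 ± 0.093, adjusted p = 0.00176). KIF20A had 67.8 and 72.1 CPM in POU2F2 KD and 90.8 CPM in control (log2 -0.34 ± 0.089, adjusted p = 0.0123). BUB1B changed by -0.30 and MAD2L1 by -0.31. CDK1, at -0.24 ± 0.094, did not pass (adjusted p = 0.133). In the fit of all 22 libraries 0 of the 55 passed, against 0.0952% of all genes, and 1 had an unadjusted p below 0.05. DESeq2 on the SUDHL4 libraries called 1.

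Among the related lists in SUDHL4 POU2F2 KD, 6 of 58 other mitotic genes were called lower (median -0.14) and 4 of 42 S phase genes (median -0.11), with none of either list called higher. CDKN1A was again called higher, at a log2 of 1.91 (edgeR adjusted p = 0.000815), and 0 of 18 genes of the anaphase-promoting complex list were called, with 3 of 18 at an unadjusted p below 0.05. Both knockdowns were set against the same control library, so their changes are not independent.

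Set against each other in SUDHL4, the POU2F2 KD libraries held more RNA of these genes than the POU2AF1 KD library. Of the 55, 54 were called higher in POU2F2 KD, against 13.8% of all genes called higher and 26.2% called in either direction, with a median log2 difference of 0.65. ASPM differed most, by 0.97 ± 0.10 (edgeR adjusted p = 4.52e-09), followed by CDK1 and ESPL1 at 0.88 and 0.87. PTTG1 did not pass, at 0.23. In the fit of all 22 libraries 0 passed, against 0.196% of all genes.

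In OCI-Ly7, no change of the 55 genes passed the test after knockdown of POU2AF1. Summed over the 55 genes, the level was 10134 to 11326 CPM in the 6 POU2AF1 KD libraries (median 10427), 10345 to 12890 CPM in the 8 POU2F2 KD libraries (median 11675), and 10797, 12902, 11538 and 11185 CPM in the 4 control libraries. The groups overlap. The median log2 change in POU2AF1 KD was -0.089, a fold of 0.940 or 5.96% less RNA, with 48 of 55 below zero and a range from -0.41 for CDCA3 to 0.077 for KIF11. The 0 of 55 called (edgeR's quasi-likelihood test with batch as a term, adjusted over 16000 genes) compare with 0.887% of all genes. Of the 55, 5 had an unadjusted p below 0.05, and DESeq2 called 1. The counts by sign and by unadjusted p have no share over all genes beside them. On mean log2(CPM + 0.5) within batch 1 (4 POU2AF1 KD libraries against 1 control library) the median was -0.097, and within batch 2 (2 against 3) it was -0.11.

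**Figure D3:**
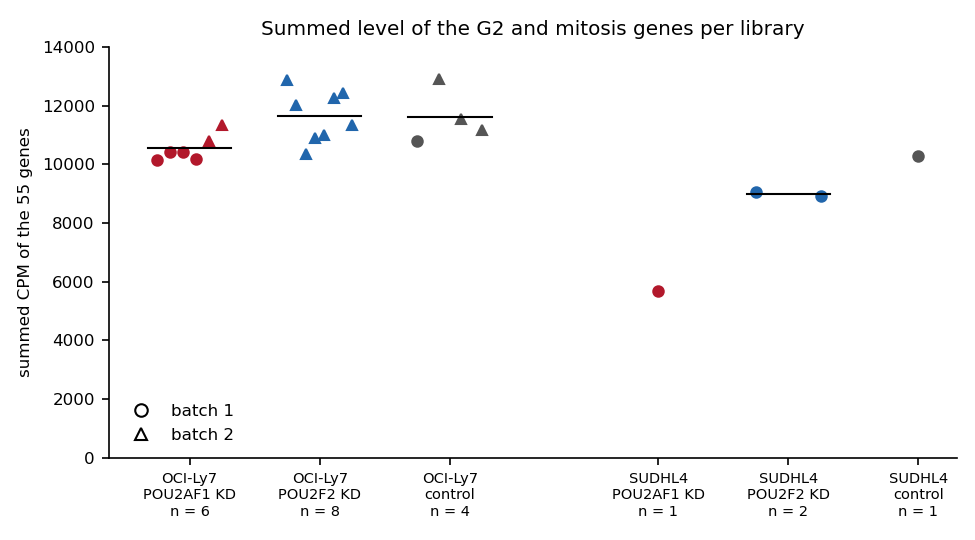
Summed level of the 55 genes in each library, in TMM-normalised CPM, by line and group. Circles are batch 1 libraries, triangles batch 2 libraries, and the bar is the group mean. In SUDHL4 the POU2AF1 KD library stands at 5689 CPM and the control library at 10269 CPM, while the 3 OCI-Ly7 groups overlap between 10134 and 12902 CPM.

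The genes with the smallest p in OCI-Ly7 POU2AF1 KD were a phosphatase of mitotic entry, a spindle motor and a regulator of mitotic entry. CDC25B, which starts the activation of CDK1, had 155 to 219 CPM in the 6 POU2AF1 KD libraries (median 179, mean 182 ± 26.9 SD) and 227, 248.5, 249.5 and 259.5 CPM in the 4 control libraries (246 ± 13.6). KIFC1, a kinesin that moves towards microtubule minus ends, had 174.5 to 208 CPM in POU2AF1 KD (median 203, mean 198 ± 12.7) and 234, 252.5, 248.5 and 246 CPM in control (245 ± 7.88). For both, every POU2AF1 KD library lay below every control library. The log2 changes were -0.34 ± 0.11 for CDC25B (unadjusted p = 0.00769, edgeR adjusted p = 0.293) and -0.26 ± 0.087 for KIFC1 (unadjusted p = 0.0078, adjusted p = 0.296). Neither passed.

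CDCA3 had 69.1, 66.7, 63.2 and 68.0 CPM in the batch 1 libraries of OCI-Ly7 POU2AF1 KD and 94.8 CPM in the batch 1 control. In batch 2 it had 94.95 and 135.5 CPM in POU2AF1 KD and 134, 151 and 157 CPM in control. The groups overlap when the batches are pooled (82.9 ± 28.2 CPM in POU2AF1 KD and 134 ± 28.1 CPM in control), and in batch 2 as well. Its log2 change of -0.41 ± 0.16 did not pass (edgeR adjusted p = 0.534). CDCA3 overlaps GNB3 on the opposite strand, and GNB3 had 1.46 to 8.10 CPM in POU2AF1 KD and 31.8 to 39.5 CPM in control, with no overlap. The 9 CDCA3 transcripts that do not overlap GNB3 summed to 53.0 to 130.4 TPM in POU2AF1 KD and 115 to 149 TPM in control. The part of GNB3 in the CDCA3 value was not tested.

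**Figure D4:**
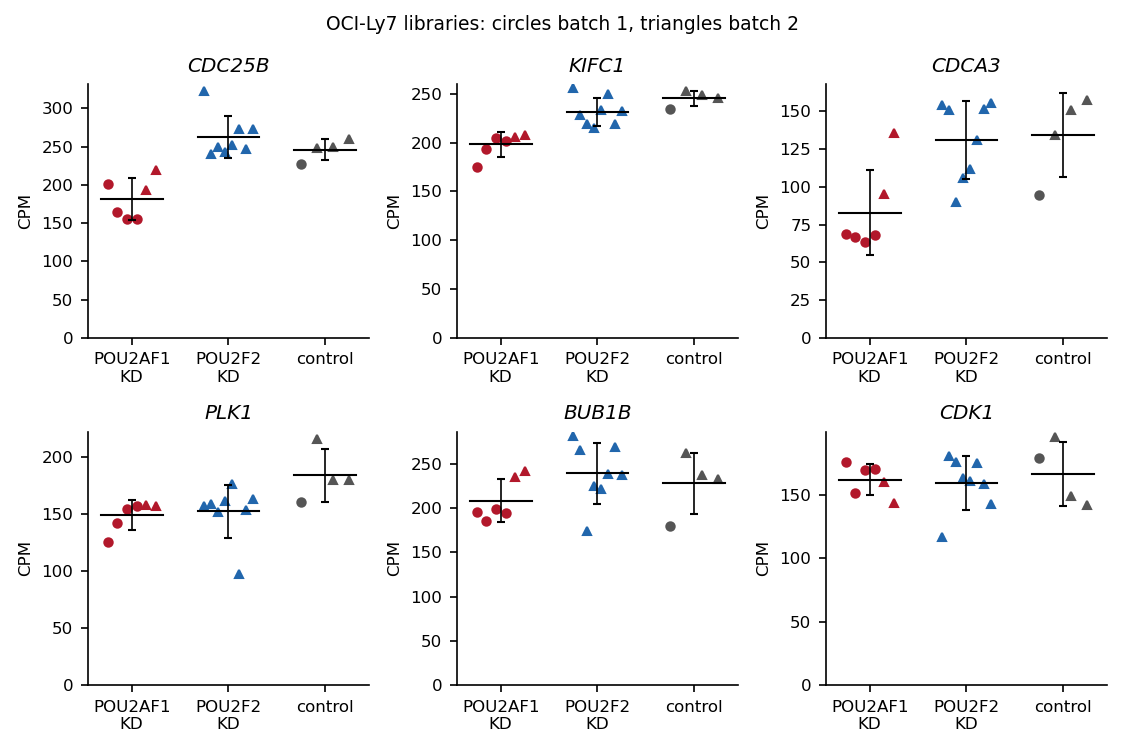
Levels of CDC25B, KIFC1, CDCA3, PLK1, BUB1B and CDK1 in the OCI-Ly7 libraries, in TMM-normalised CPM, with the mean and SD of each group of 6 POU2AF1 KD, 8 POU2F2 KD and 4 control libraries. For CDC25B, KIFC1 and PLK1 every POU2AF1 KD point lies below every control point, and for CDK1 and BUB1B the groups overlap.

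The central genes of mitotic entry overlapped between the groups in OCI-Ly7, PLK1 apart. CDK1 had 144 to 176 CPM in POU2AF1 KD (median 165), 117 to 180.4 CPM in POU2F2 KD (median 162) and 179, 195.5, 149 and 142 CPM in control. CCNB1 had 178 to 244 CPM in POU2AF1 KD (median 191), 184 to 280.5 CPM in POU2F2 KD (median 203.5) and 212.5, 289, 197 and 184 CPM in control. PLK1 had 125 to 158 CPM in POU2AF1 KD (median 156), 97.0 to 176 CPM in POU2F2 KD (median 158) and 160.4, 216, 180 and 180.2 CPM in control. Every POU2AF1 KD library lay below every control for PLK1, with a log2 change of -0.22 ± 0.15 that did not pass (unadjusted p = 0.145). FOXM1 changed by -0.13 ± 0.11, AURKA by -0.14 ± 0.14, TOP2A by -0.052 ± 0.17 and MKI67 by 0.012 ± 0.16, none of which passed. Groups did not overlap for 3 of the 55 genes in all, CDC25B, KIFC1 and PLK1. The share of all genes without overlap was not counted, so this number has no background.

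By role, the lowest median in OCI-Ly7 POU2AF1 KD was that of anaphase and mitotic exit, at -0.25, with all 5 genes below zero. The spindle checkpoint, which had the lowest median in SUDHL4 POU2AF1 KD, was at -0.0046. None of the 59 other mitotic genes passed (edgeR, 3 at an unadjusted p below 0.05, median -0.076), nor any of the 42 S phase genes (2 at an unadjusted p below 0.05, median -0.11). Of the 25 DREAM and MYB-MuvB regulators 1 was called, MYBL1, which encodes A-MYB, a factor of germinal centre B cells, at a log2 of -1.40 ± 0.17 (adjusted p = 0.000242).

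Libraries of OCI-Ly7 that share a series mark within batch 2 resembled each other. A fit with the series mark as a block had a coefficient of variation of 0.146, against 0.297 with batch alone. Batch 1 libraries carry no series mark and formed a single block, in which 4 POU2AF1 KD libraries were set against 1 control library. In that fit 4 of the 55 passed as lower in POU2AF1 KD, against 3.10% of all genes. They were CDCA3 at -0.39 ± 0.076 (edgeR adjusted p = 0.00594), ESPL1 at -0.23 ± 0.058 (adjusted p = 0.0264), KIFC1 at -0.26 ± 0.065 (adjusted p = 0.0269) and CDC25B at -0.32 ± 0.085 (adjusted p = 0.035). Without POU2AF1 KD replicate 1, the library with the high mitochondrial share, the same fit called 8 as lower, against 5.95% of all genes. With replicate 1 kept in that fit, CDK1 (-0.13), CCNB1 (-0.14) and FOXM1 (-0.15) did not pass.

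After POU2F2 knockdown in OCI-Ly7, the 55 genes had a median log2 change of -0.0077, with 31 of 55 below zero and a range from -0.31 for PLK1 to 0.18 for ASPM. edgeR called 0 of the 55 and 0 of all 16000 genes, with 1 of the 55 and 283 of all genes at an unadjusted p below 0.05. DESeq2 called 0 of the 55. The guides' target POU2F2, at 55.8 to 147.9 CPM in POU2F2 KD and 206.9 to 406.9 CPM in control, was not called by edgeR either. The 0 of 55 therefore cannot show that the 55 genes did not respond. The smallest p were those of PLK1, ESPL1 and ASPM. PLK1 stood at 152 ± 23.6 CPM in POU2F2 KD (SD, n = 8) and 184 ± 23.3 CPM in control (n = 4), with overlapping groups and a log2 change of -0.31 ± 0.13 (unadjusted p = 0.0269, edgeR adjusted p = 1). ESPL1 stood at 249.3 ± 27.2 CPM in POU2F2 KD and 257 ± 35.8 CPM in control, a log2 change of -0.14 ± 0.10 that did not pass. Within batch 2 (8 POU2F2 KD libraries against 3 control libraries) the median change of the 55 was -0.027. ASPM, which fell most in SUDHL4 POU2AF1 KD, had 122 to 223 CPM in OCI-Ly7 POU2F2 KD (median 164) and 233, 157, 153.5 and 145 CPM in control. The 42 S phase genes had a median of -0.10, and 0 of them passed.

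Between the knockdowns of OCI-Ly7, 0 of the 55 passed, against 0.163% of all genes, with 3 at an unadjusted p below 0.05, and DESeq2 also called 0. The median log2 difference was 0.076 for POU2F2 KD over POU2AF1 KD, with 49 of 55 above zero. That count and the one at an unadjusted p have no share over all genes beside them. CDC25B had the smallest p, with 240.5 to 323 CPM in POU2F2 KD (median 251) and 155 to 219 CPM in POU2AF1 KD (median 179). The groups do not overlap, and the log2 difference of 0.38 ± 0.12 did not pass (edgeR adjusted p = 0.516). CENPE at 0.29 and NUF2 at 0.29 followed.

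The response to POU2AF1 knockdown was compared between the lines as the OCI-Ly7 change minus the SUDHL4 change, in the fit of all 22 libraries. All 55 differences were above zero, from 0.17 to 1.202 with a median of 0.72. They all rest on the same lone SUDHL4 POU2AF1 KD and control libraries. The share of all genes above zero is not given here, so this count has no background. Only BUB1B passed, at 1.15 ± 0.27 (edgeR adjusted p = 0.0489), against 0.798% of all genes called. ASPM had the largest difference, 1.202 ± 0.32 (adjusted p = 0.0968), MAD2L1 differed by 1.06 ± 0.26 (adjusted p = 0.0707) and NCAPH by 0.89 ± 0.22 (adjusted p = 0.0736). Leaving out single libraries gave 0 to 5 calls among the 55, and 0 in 17 of 20 such fits. Counts were above 0 without POU2F2 KD replicate 1 (2 calls) or 3 (4 calls) or without control replicate 7 (5 calls), all of OCI-Ly7. The series mark as a block gave 37 calls, against 10.3% of all genes, though SUDHL4 libraries carry no such mark. For BUB1B, OCI-Ly7 held 209 ± 24.0 CPM in POU2AF1 KD (SD, n = 6) and 228 ± 34.7 CPM in control (n = 4), while SUDHL4 held 104 CPM in POU2AF1 KD and 228 CPM in control.

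For POU2F2 the difference between the lines had a median of 0.18, and 0 of the 55 passed or had an unadjusted p below 0.05 (edgeR, 0.0106% of all genes called, DESeq2 0). CKS2 had the smallest p, at a difference of 0.49 ± 0.24 (adjusted p = 1). Across the 55 genes, the changes in the 2 lines were weakly related, with Pearson's r of -0.18 for POU2AF1 KD and 0.022 for POU2F2 KD. These correlations are across genes, which share their libraries and are not independent replicates.

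Between the control libraries, OCI-Ly7 (n = 4) and SUDHL4 (n = 1) differed in 7 of the 55 genes, with 5 higher in OCI-Ly7 and 2 lower, against 23.5% of all genes called. With the series mark as a block, 24 differed, with 19 higher in OCI-Ly7 and 5 lower, against 44.5% of all genes called. SUDHL4 libraries carry no such mark. CDC25B had 227, 248.5, 249.5 and 259.5 CPM in OCI-Ly7 control and 109.5 CPM in SUDHL4 control (log2 0.99 ± 0.20, edgeR adjusted p = 0.00101). GTSE1, BIRC5, NCAPH and KIFC1 were higher in OCI-Ly7 by 0.77, 0.72, 0.53 and 0.46. CKS2 was lower by 0.91 and the condensin subunit NCAPD2 lower by 0.90. The median difference of the 55 was 0.16, against 0.068 over all genes. The lone SUDHL4 control is assumed to vary like the other groups, and without OCI-Ly7 control replicate 1, 4 genes passed.

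Among OCI-Ly7 libraries the 55 genes differed in how far they ranged. The highest library held 1.29 times the CPM of the lowest for BIRC5 and 4.11 times for CDC25C. CDCA8 and FOXM1 followed the mean of the other 54 genes most closely over the 18 OCI-Ly7 libraries (log2 TPM centred by batch), with Pearson's r of 0.97 and 0.92, and CDC20 and HMMR least, at 0.31 and 0.34. This order rests in part on POU2AF1 KD replicate 1. Without it NEK2 was highest at 0.95, CDCA8 had 0.91 and FOXM1 0.81, while CDC20, KIF11 and CCNA2 were lowest at -0.35, -0.35 and -0.32 and HMMR had 0.40, and the median was 0.65 in place of 0.74. Genes and libraries share depth and scaling, so these values are descriptions.

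The transcripts that carried the reads also differed between batches of OCI-Ly7. Of the 55 genes, 36 have transcripts annotated as retaining an intron, and for 6 of them (BUB1B, MAD2L1, PTTG1, GTSE1, TOP2A and SMC4) the share of such transcripts was higher in every batch 2 library, leaving aside POU2F2 KD replicate 3, than in any batch 1 library. For MAD2L1 it was 51.6% to 65.3% of the gene's TPM (median 57.8%) over 12 batch 2 libraries and 4.11% to 10.9% (median 5.78%) over 5 batch 1 libraries. For TOP2A it was 19.4% to 31.5% (median 26.3%) in batch 2 and 1.22% to 5.49% (median 3.76%) in batch 1. POU2F2 KD replicate 3, labelled as batch 2 and 48 h, had 3.36% for MAD2L1 and 3.46% for TOP2A, within or below the batch 1 range. SUDHL4, all batch 1, had 2.14% to 11.6% for MAD2L1. CCNB2 and NUF2 went the other way, with lower shares in batch 2. How many of all genes with retained-intron transcripts split by batch was not counted, so these numbers have no background. Gene totals count these transcripts, and the level of MAD2L1 without them was 52.5 to 65.5 TPM in batch 2 and 82.95 to 117 TPM in batch 1.

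**Figure D5:**
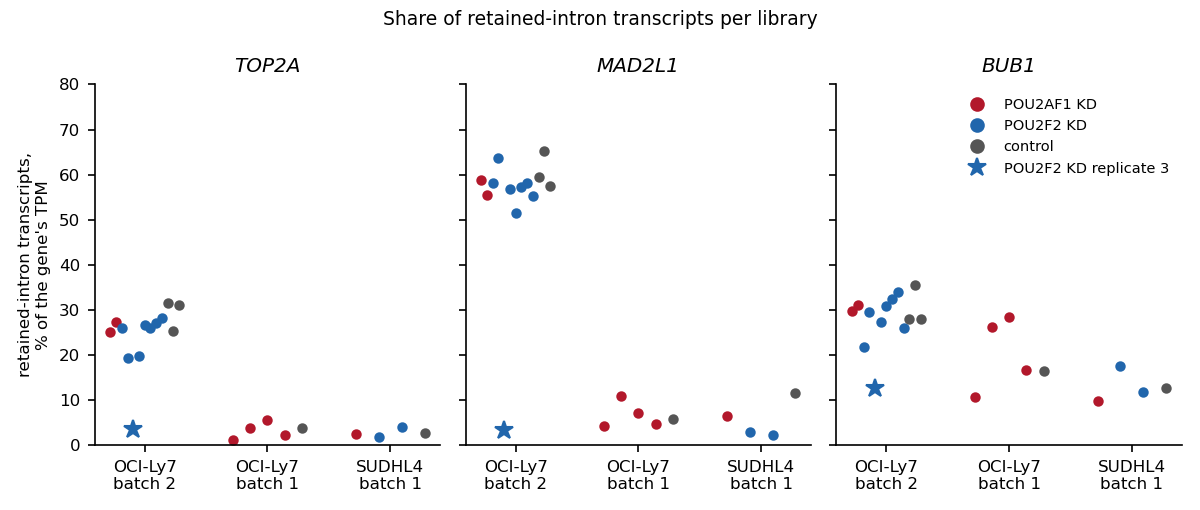
Share of the TPM of TOP2A, MAD2L1 and BUB1 that is on transcripts annotated as retaining an intron, in percent, for each OCI-Ly7 library of batch 2 and batch 1 and each SUDHL4 library, with a star for POU2F2 KD replicate 3. Batch 2 libraries of OCI-Ly7 other than the star lie above batch 1 for TOP2A and MAD2L1, and the batches overlap for BUB1.

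The leading transcript was the same in both lines for 51 of the 55 genes, and differed for CCNA2, CDCA3, ECT2 and NCAPH. Of the 55 genes, 12 overlap another gene that had at least 100 reads on average, 10 of them on the opposite strand only, and whether the quantification used strand is not given in the sources used here. The near-identical copies KIF4B and PTTG2 held at most 0.324% and 0.221% of the reads of their pair with KIF4A and PTTG1.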

How the data were processed

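Stranded paired-end mRNA libraries were quantified per transcript by the authors with Salmon 1.5.1 after trimming with fastp, of which no version is given, against GRCh38.p13, per the submitters' processing notes. The 26 deposited files give estimated counts and TPM for 227912 transcripts, of which 205804 were matched to 58592 genes of GENCODE release 29. The 22108 others were left out, and 98.3% to 98.8% of the reads of each file were kept. Estimated counts and TPM were summed per gene, and the counts rounded.

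Of the files, 3 pairs within groups differed by about the sampling noise (ratio below 1.5) and were merged, and OCI-Ly7 control file 3 repeated the sum of files 1 and 2 and was not added, leaving 22 libraries. The merging threshold was chosen once repeats had been found.

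Groups were compared with edgeR 4.0.16 (TMM scaling, a filterByExpr minimum of 10 counts, robust quasi-likelihood tests, Benjamini-Hochberg adjustment over all genes tested), each line on its own, OCI-Ly7 with a batch term (14 residual degrees of freedom, 1 in SUDHL4). Lines were compared in a fit of all 22 libraries, with 15. The SE of an edgeR log2 change was derived from the test, as the size of the change over the square root of its F statistic. A fit with the series mark as a block was also run, and for SUDHL4 and between lines it was added after the data were seen. The alternatives were DESeq2 1.42.0, limma 3.58.1 on log2(TPM + 1), other scaling and filtering, protein-coding transcripts alone, other batch terms and leaving out each library. The fits were also run on simulated data. For the OCI-Ly7 and all-library fits, the simulated spread was set lower than that of the real libraries, so no conclusion is drawn from it.

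Given with full values were CDK1, CCNB1, PLK1, AURKA, TOP2A, MKI67 and FOXM1 where they bear on a comparison, up to 10 genes called with the largest change or, with none called, the 3 of smallest p, and the 3 highest and 3 lowest levels. INCENP, PTTG1, TACC3 and CKAP2 were added after their values were seen. The 55 genes and the other lists were chosen with earlier results of these data known. Where no share over all genes is stated, counts by sign or by unadjusted p have no background. Promoters come from RefSeq.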

Additional observations from a re-analysis of the deposited data

Results flagged for a closer look

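Of 93 groups of 4 to 8 OCI-Ly7 libraries examined for a single library far from the others, 7 had one, and chance gives about 1 in 20. Control replicate 1, the only control of batch 1, accounted for 3 of them, with 911.4 CPM of MKI67 below the other controls, 232.9 CPM of ASPM above them and 70.29 CPM of KIF20A below them. POU2F2 KD replicate 6 was low in PLK1 at 97.01 CPM, and POU2F2 KD replicate 1 was high in CDC25B at 322.9 CPM. POU2AF1 KD replicate 5 was high in CCNB1 at 244.2 CPM, and POU2AF1 KD replicate 6 was high in PRC1 at 153.1 CPM.

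The response of BUB1B, the checkpoint gene, to POU2AF1 knockdown differed between the lines, with the OCI-Ly7 change minus the SUDHL4 change at a log2 of 1.154 (edgeR adjusted p = 0.0489 over all genes). The call is at the threshold: no gene of the 55 passed in 17 of 20 fits that left out 1 library, nor with relative log expression scaling or without the filter on low counts.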

How the results depend on the processing

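Of the counts of called genes among the 55 and their median changes, 372 values under an alternative were labelled the same and 74 moved. A count was labelled the same if it lay within a set fold of the main count, or if both were 0. A median was labelled the same if it differed by less than its spread between libraries (log2 0.0942 in OCI-Ly7 and between lines, 0.016 in SUDHL4). Neither rule looks at direction. In SUDHL4 POU2AF1 KD the main count of 55 was 11 with all libraries fitted together and 8 when either POU2F2 KD library was also left out, and the median of -0.814 became -0.83 without the filter on low counts, -1.07 with limma on log2(TPM + 1), -0.773 on protein-coding transcripts and -0.831 with all libraries, with or without the series block, and -0.83 there without POU2F2 KD replicate 2. In SUDHL4 POU2F2 KD the count of 7 was 1 with DESeq2 or limma, 4 without the filter, 32 with every file its own library and 0 with all libraries, with or without the series block, and also when single SUDHL4 libraries were left out of that fit. Its median of -0.155 was -0.242 with limma, -0.189 with all libraries or the series block and -0.193 to -0.187 leaving out a library. For POU2F2 KD over POU2AF1 KD in SUDHL4 the median of 0.648 was 0.667 without the filter, 0.809 with limma, 0.6 on protein-coding transcripts and 0.632 with all libraries but the control, and the count of 54 was 0 with all libraries, also without single SUDHL4 libraries.

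In OCI-Ly7 POU2AF1 KD the count of 0 was 1 with DESeq2, 2 with every file its own library, 4 in the series block, 8 there without the library of high mitochondrial share, and 1 with the replicate number as a block. The replicate numbers do not pair the libraries (r of -0.511 to 0.745 over 10 same-numbered pairs), and SUDHL4 has too few libraries for such a block. For POU2F2 KD over POU2AF1 KD the count of 0 was 1 (CDC25B) in the series block without that library, without a batch term (median 0.196) and with POU2F2 KD replicate 3 placed in batch 1. Between controls of the lines the count of 7 was 3 with limma (median 0.282), 24 with every file its own library or the series block, 11 on protein-coding transcripts and 4 to 9 leaving out a library, with 4 without OCI-Ly7 control replicate 1. For the line difference in the POU2AF1 KD change the count of 1 was 0 with relative log expression scaling or without the filter, 12 with DESeq2, 3 with limma (median 0.895), 41 with every file its own library, 37 in the series block and 0 to 5 leaving out a library. The causes were not tested. SUDHL4 has 1 library in 2 of its 3 groups, which limits its tests.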
